A study of Mus musculus with 6 samples.

Results

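The genes described here are 35 mouse genes of fatty acid import and beta oxidation, chosen by name, and all 35 were found among the 16266 genes of the deposited tables. The study compared bone marrow-derived macrophages (BMDMs, cells grown out of marrow and matured into macrophages in culture) that lack Capns1, the small subunit shared by calpains 1 and 2, with wild-type (WT) BMDMs. The knockout (KO) libraries came from BMDMs treated for 24 h with lipopolysaccharide (LPS), a bacterial product sensed by Toll-like receptor 4 (n = 3), and the WT libraries from BMDMs given the same treatment (n = 3). LPS is thus shared by every library, its dose is not given in the sources used here, and untreated cells were not analysed here. The series title speaks of a myeloid-specific deletion. The labels name no Cre driver, strain, age or sex. Nor do they state that the replicates came from different mice or cultures, so p-values measure only the spread between these libraries, which may be technical.

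Fatty acids are burned in mitochondria through a relay of steps. Acyl-CoA synthetases attach coenzyme A, carnitine palmitoyltransferase 1 at the outer mitochondrial membrane swaps it for carnitine, the carrier Slc25a20 moves the acylcarnitine across the inner membrane, and Cpt2 restores the CoA ester in the matrix. Each turn of the beta oxidation spiral then runs through an acyl-CoA dehydrogenase, a hydratase, a hydroxyacyl-CoA dehydrogenase and a thiolase. The dehydrogenases pass their electrons through the electron transfer flavoprotein to ubiquinone. Very long and branched chains are shortened in peroxisomes, and peroxisome proliferator-activated receptors (PPARs), which bind fatty acids, turn on many of these genes. In macrophages, LPS shifts metabolism towards glycolysis, whereas alternative activation is associated with fatty acid oxidation.

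The promoters of the 5 members that differed between KO and WT by the test below are shown first, so that the letters of the rising and the falling genes can be compared. Cpt1a, Slc25a20 and Etfb were higher in KO, and Acsl3 and Acox3 were lower. Each window is 300 bases around a RefSeq start site on the + strand of GRCm38.p6, namely chr19:3323051-3323350 for Cpt1a, chr9:108661886-108662185 for Slc25a20, chr7:43443822-43444121 for Etfb, chr1:78657575-78657874 for Acsl3 and chr5:35582784-35583083 for Acox3. Capitals mark GC boxes (GGGCGG on either strand) and, in Etfb, also the NRF1 motif (GCGCA and GCGC with any base between).
Cpt1a: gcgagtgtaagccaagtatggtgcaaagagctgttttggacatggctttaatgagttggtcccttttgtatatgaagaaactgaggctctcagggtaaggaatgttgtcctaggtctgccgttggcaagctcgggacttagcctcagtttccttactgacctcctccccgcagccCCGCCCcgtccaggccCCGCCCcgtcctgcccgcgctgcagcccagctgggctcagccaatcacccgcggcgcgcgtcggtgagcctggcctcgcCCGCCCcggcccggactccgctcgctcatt
Slc25a20: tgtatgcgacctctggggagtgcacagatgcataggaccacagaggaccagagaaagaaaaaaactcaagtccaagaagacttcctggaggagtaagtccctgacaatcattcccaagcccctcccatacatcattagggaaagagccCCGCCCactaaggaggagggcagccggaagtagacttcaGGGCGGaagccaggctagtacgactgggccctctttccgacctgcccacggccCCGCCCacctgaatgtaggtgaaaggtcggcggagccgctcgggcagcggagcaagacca
Etfb: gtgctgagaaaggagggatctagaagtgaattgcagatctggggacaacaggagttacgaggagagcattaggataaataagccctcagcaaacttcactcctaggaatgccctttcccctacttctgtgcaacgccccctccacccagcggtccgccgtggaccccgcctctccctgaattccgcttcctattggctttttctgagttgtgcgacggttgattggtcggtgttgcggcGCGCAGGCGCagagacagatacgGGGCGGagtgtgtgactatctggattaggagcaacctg
Acsl3: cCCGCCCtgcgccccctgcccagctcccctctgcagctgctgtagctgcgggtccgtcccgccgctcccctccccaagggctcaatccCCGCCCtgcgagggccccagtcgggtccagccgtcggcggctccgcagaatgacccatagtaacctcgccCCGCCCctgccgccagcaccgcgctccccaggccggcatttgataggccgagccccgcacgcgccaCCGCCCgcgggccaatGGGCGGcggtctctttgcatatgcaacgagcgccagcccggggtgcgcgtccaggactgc
Acox3: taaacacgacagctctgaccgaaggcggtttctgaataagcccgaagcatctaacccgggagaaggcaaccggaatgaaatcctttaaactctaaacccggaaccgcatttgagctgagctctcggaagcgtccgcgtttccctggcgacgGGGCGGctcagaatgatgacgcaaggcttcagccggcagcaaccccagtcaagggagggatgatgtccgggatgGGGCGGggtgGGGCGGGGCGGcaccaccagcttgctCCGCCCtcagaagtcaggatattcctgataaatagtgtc
The windows hold 3 GC boxes in Cpt1a, 3 in Slc25a20, 1 in Etfb, 5 in Acsl3 and 5 in Acox3, where a neighbouring pair overlaps by 1 base. Genes of both directions thus hold this motif. Of the 35 members, 30 matched the RefSeq promoter table by symbol, with 31 windows. A GC box is in 25 of these 31 windows, against 61.7% of the 12516 windows of tested genes and 35.6% of all 32817 windows. The NRF1 motif is in 5 of the 31, those of Acad10, Etfb, Etfdh, Ppara and Slc22a5, against 9.80% of windows of tested genes and 4.59% of all windows. Searched on both strands, 3 motifs had no match in the 31 windows. These were the direct repeat bound by PPARs (AGGNCA repeated after any 1 base; 0.208% of windows of tested genes), the estrogen-related receptor element (TNAAGGTCA; 0.695%) and the E-box (CACGTG; 9.87%). A match, or the lack of one, describes the letters of these windows only.

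The libraries held 32631163 to 40913819 counts, of which the members took 0.213 to 0.230% in KO libraries and 0.216 to 0.226% in WT libraries. Capns1 had 335, 370 and 298 counts in KO libraries, against 17055, 18934 and 21331 counts in WT libraries, although the genotype field of the KO samples gives a different Capns number in each. Summed macrophage markers (8 genes, 1 of them, Cd14, lower in KO by the test below) came to 33630 to 38750 CPM (counts scaled to 1 common library total) in KO libraries and 35310 to 42660 CPM in WT libraries. Of 10 fibroblast and stroma markers, 9 were tested and 5 rose. All 9 log2 fold changes, KO minus WT, were above 0 (median 0.95), where 48.3% of all genes were above 0. The 10 markers summed to 346 to 419 CPM in KO libraries and 162 to 197 CPM in WT libraries. By the test below, 8.44% of all genes were higher in KO and 6.21% lower, for comparison with these marker counts. Neutrophil and precursor markers (9 genes, 2 higher and 3 lower in KO) summed to 1042 to 1401 CPM in KO libraries and 1108 to 1488 CPM in WT libraries. Markers of T and NK, B, dendritic, erythroid, adipocyte and endothelial cells summed to at most 19.4 CPM per cell type in any library, with Cd3e, Cd8a, Ncr1 and Trbc2 not analysed here. Among them, Nkg7 of 2 tested T and NK markers and Kdr of 3 tested endothelial markers were lower in KO by the test below. The part of stromal or other cells in the differences below was not tested, and fewer cells of a type and less RNA per cell cannot be told apart. A principal component with 15.9% of the variance set KO replicate 2 (25.5) apart from KO replicates 1 and 3 (-12.6 and -10.4), and WT replicate 3 (-23.2) apart from WT replicates 1 and 2 (8.21 and 12.4).

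Most fatty acid oxidation genes had no called difference between KO and WT macrophages. Of the carnitine-dependent entry into mitochondria, Cpt1a rose 1.65-fold and the carrier Slc25a20 1.65-fold, and Etfb, a subunit of the electron transfer flavoprotein, rose 1.41-fold. Acsl3, an acyl-CoA synthetase of the endoplasmic reticulum and lipid droplets, stood at 0.462 of its WT level in KO, and the peroxisomal oxidase Acox3 at 0.756. A gene is termed called where its edgeR p, adjusted over all 12219 genes tested, was under 0.05. All members but Ppara had enough counts to be tested, and 5 of the 34 were called, or 14.7%, against 14.6% of all genes tested. The 3 called higher are set beside 8.44% of all genes called higher, and the 2 called lower beside 6.21% called lower, so the members were called about as often as genes in general. Their median log2 fold change was -0.085, against -0.011 over all genes. Above 0 were 12 of the 34 values, against 48.3% of all genes. This count was 9 to 14 over the alternatives, where the fits with 14 held 35 members. CPM ranges did not overlap for 10 of the 34 members, 5 with KO above and 5 with KO below WT, where the background is 33.6% of all genes (18.2% above and 15.5% below). Cpt1a, Slc25a20 and Acsl3 were called in each of 19 alternative fits. The number of members called lower was 1 without KO replicate 1 or KO replicate 3, and 4 without KO replicate 2 or WT replicate 3. Without both KO replicate 2 and WT replicate 3 it was 9, where 26.0% of all genes were called.

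**Figure D1:**
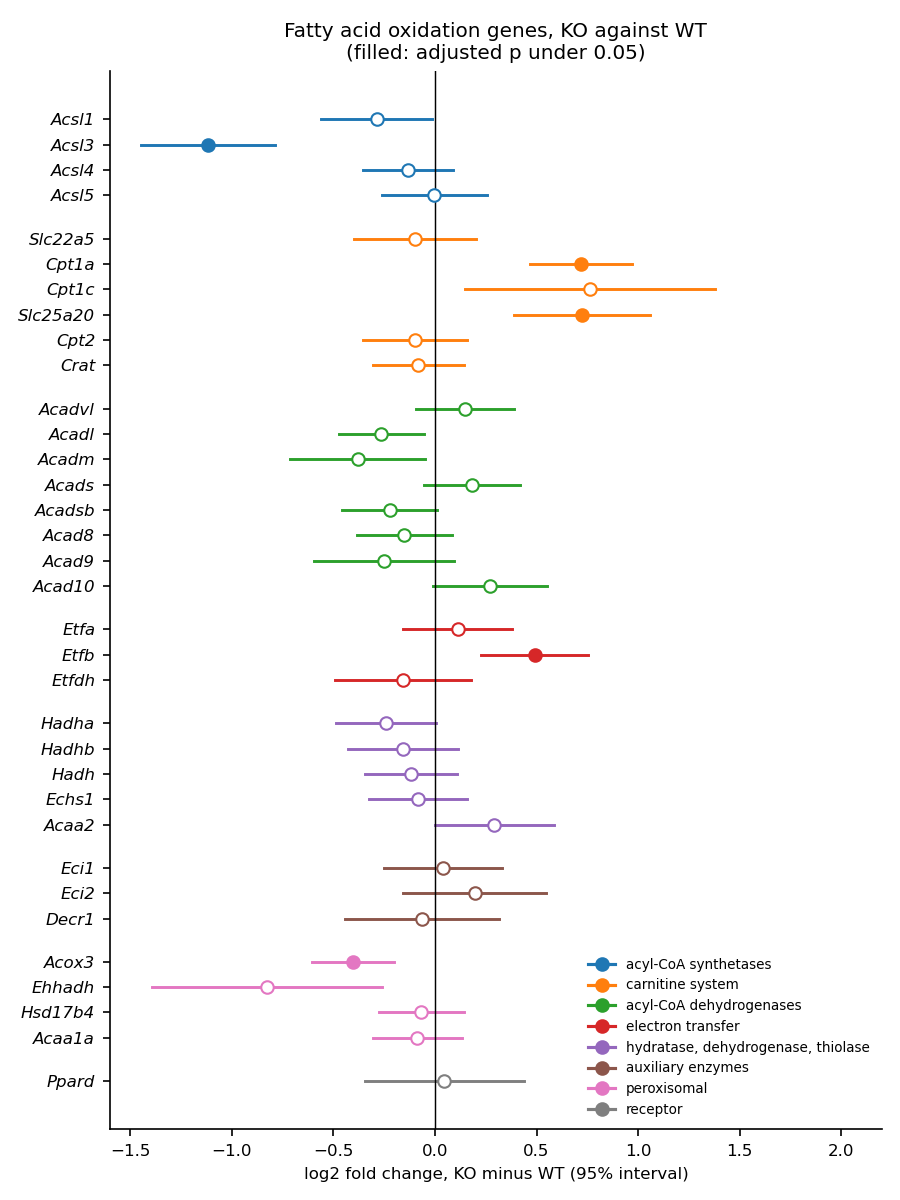
Log2 fold change, KO minus WT, of the 34 tested fatty acid oxidation genes with its 95% interval from edgeR (3 libraries a group), coloured by the step each gene serves. Filled points mark the 5 called members, with Cpt1a, Slc25a20 and Etfb right of 0 and Acsl3 and Acox3 left of it.

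Levels were compared between genes per unit of length, as the authors' FPKM (fragments scaled to gene length and library total). The highest was Acaa1a, the peroxisomal thiolase, with 99.0, 103 and 112 FPKM in KO libraries, against 102, 109 and 117 FPKM in WT libraries. Next came Acsl5, an acyl-CoA synthetase of mitochondria and endoplasmic reticulum, with 91.2, 90.1 and 73.6 FPKM in KO libraries, against 91.8, 77.3 and 82.7 FPKM in WT libraries. Within both genes the KO and WT ranges overlapped, and every value of Acaa1a lay above every value of Acsl5. Etfb had 85.9, 107 and 88.4 FPKM in KO libraries, against 71.4, 63.8 and 62.0 FPKM in WT libraries. Echs1, the short-chain enoyl-CoA hydratase, had 64.1, 75.9 and 66.5 FPKM in KO libraries, against 73.0, 76.3 and 66.4 FPKM in WT libraries. Hadha, the alpha subunit of the trifunctional protein, had 47.9, 52.0 and 42.7 FPKM in KO libraries, against 57.4, 58.6 and 50.6 FPKM in WT libraries. The ranges of Acsl5, Etfb and Echs1 overlapped in that order, whereas Hadha lay below Echs1 in all libraries and overlapped the next gene, Acadvl. At the low end, Acsl3 averaged 1.78 ± 0.206 FPKM in KO and 3.79 ± 0.550 FPKM in WT libraries (SD, n = 3 each). Ehhadh averaged 0.740 ± 0.222 FPKM in KO and 1.30 ± 0.166 FPKM in WT libraries (SD, n = 3 each), and Cpt1c, the lowest of the tested members by the mean over 6 libraries, 0.791 ± 0.196 FPKM in KO and 0.460 ± 0.0468 FPKM in WT libraries (SD, n = 3 each). The FPKM of all 35 members summed to 874 ± 45.1 in KO and 850 ± 28.5 in WT libraries (SD, n = 3 each), and the ranges overlapped. FPKM rests on 1 length per gene, which was 9685 bases for Etfa and 904 for Etfb, so an order between genes depends on the gene models used. Exons of Acsl1, Acsl5, Crat, Echs1, Eci2, Etfdh and Hadha overlap genes on the opposite strand, whose reads cannot be told apart where strand was not used in counting.

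**Figure D2:**
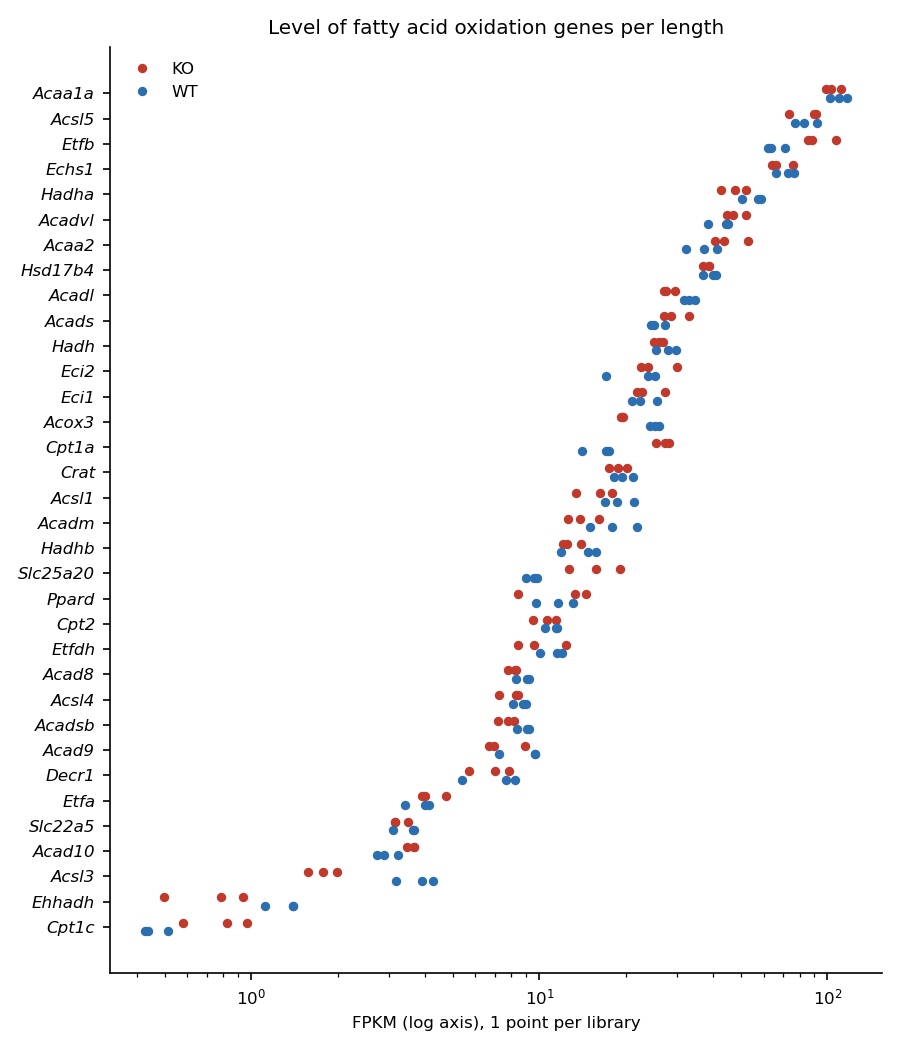
FPKM (log axis) of the 34 tested members, 1 point per library with KO in red and WT in blue, ordered by the mean over 6 libraries. Acaa1a, Acsl5 and Etfb are at the top, and Acsl3, Ehhadh and Cpt1c at the bottom. The KO and WT points separate for the called Cpt1a, Slc25a20, Etfb, Acox3 and Acsl3. They also separate for Cpt1c, Acadl, Acad10, Acadsb and Ehhadh, which were not called.

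Of the 4 acyl-CoA synthetases, which activate fatty acids, Acsl3 fell and the other 3 were not called, where 6.21% of all genes were called lower. Acsl3 had 7.86, 6.23 and 6.99 CPM in KO libraries, against 12.6, 16.9 and 15.5 CPM in WT libraries. All KO values lay below all WT values (log2 fold change -1.12, SE 0.15, edgeR adjusted p = 5.80e-04). The gene shares 4.18% of its 32-base sequence words with other genes, chiefly Utp14b, which overlaps its exons on the same strand. Acsl1, the synthetase most tied to beta oxidation in heart and adipose tissue, had 118, 88.3 and 107 CPM in KO libraries, against 123, 112 and 141 CPM in WT libraries. Its groups overlapped (log2 fold change -0.29, 95% interval -0.56 to -0.012, adjusted p = 0.160). Acsl4, which prefers arachidonic acid, had 43.9, 38.3 and 44.5 CPM in KO libraries, against 42.9, 46.2 and 47.5 CPM in WT libraries, and these overlapped too (log2 fold change -0.13, 95% interval -0.36 to 0.091, adjusted p = 0.442). Acsl5 was nearest to no difference (log2 fold change -0.0034, 95% interval -0.26 to 0.25, adjusted p = 0.989), and its sign changed with the scaling of the libraries. On the FPKM scale Acsl5 made up 76.8 ± 3.32% in KO and 72.8 ± 2.40% in WT libraries (SD, n = 3 each) of the sum of the 4 synthetases. Acsl3 made up 1.61 ± 0.188% in KO and 3.32 ± 0.679% in WT libraries (SD, n = 3 each).

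Of the 6 members of the carnitine system, Cpt1a and Slc25a20 rose and 0 fell, where 8.44% of all genes were called higher and 6.21% lower. Cpt1a, whose product is the rate-controlling and malonyl-CoA-sensitive gate into mitochondria, is annotated on chromosome 19 from 3322326 to 3385735 (GRCm38). It had 138, 142 and 128 CPM in KO libraries, against 88.2, 70.6 and 85.8 CPM in WT libraries. Every KO library lay above every WT library (log2 fold change 0.72, SE 0.12, edgeR adjusted p = 0.00175). Slc25a20, the carnitine-acylcarnitine translocase on chromosome 9 from 108662136 to 108684642, had 27.4, 33.2 and 22.2 CPM in KO libraries, against 16.7, 17.1 and 15.7 CPM in WT libraries. Again the groups did not overlap, with the wider spread in KO (log2 fold change 0.72, SE 0.15, adjusted p = 0.00855). For both genes p was 0.1 in an exact permutation test (two-sided, 6 libraries), and 3 against 3 allows none smaller.

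Cpt2, which acts next after the translocase, had 22.3, 26.8 and 25.0 CPM in KO libraries, against 24.6, 26.8 and 27.0 CPM in WT libraries. The groups overlapped (log2 fold change -0.10, 95% interval -0.36 to 0.16, adjusted p = 0.637). Ratios of FPKM within a library, which do not depend on library scaling, were chosen with the values known and are a description. The ratio of Cpt1a to Cpt2 was 2.88, 2.48 and 2.39 in KO libraries, against 1.67, 1.23 and 1.48 in WT libraries. The ratio of Slc25a20 to Cpt2 was 1.65, 1.67 and 1.19 in KO libraries, against 0.913, 0.862 and 0.785 in WT libraries. Neither overlapped between the groups, whereas the ratio of Cpt1a to Slc25a20 overlapped, at 1.75 ± 0.261 in KO and 1.72 ± 0.253 in WT libraries (SD, n = 3 each).

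The brain-type isoform Cpt1c had 2.81, 2.39 and 1.69 CPM in KO libraries, against 1.24, 1.49 and 1.27 CPM in WT libraries. The ranges did not overlap, but the gene was not called (log2 fold change 0.76, 95% interval 0.15 to 1.38, adjusted p = 0.0958). An antisense gene overlaps its exons, and how the authors' counting treated strand is not stated, so its value is uncertain. The carnitine importer Slc22a5 (log2 fold change -0.10, adjusted p = 0.699) and the carnitine acetyltransferase Crat (-0.081, adjusted p = 0.665) were not called. Slc22a5 shares 37.0% of its words with other genes, chiefly its paralog Slc22a21. The FPKM of the 6 carnitine genes summed to 76.2 ± 4.63 in KO and 60.2 ± 1.84 in WT libraries (SD, n = 3 each), without overlap, a gap that lay in Cpt1a (27.0 FPKM in KO and 16.2 FPKM in WT libraries) and Slc25a20 (15.8 FPKM in KO and 9.45 FPKM in WT libraries). Mean FPKM of Cpt2, Crat and Slc22a5 was slightly lower in KO than in WT.

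**Figure D3:**
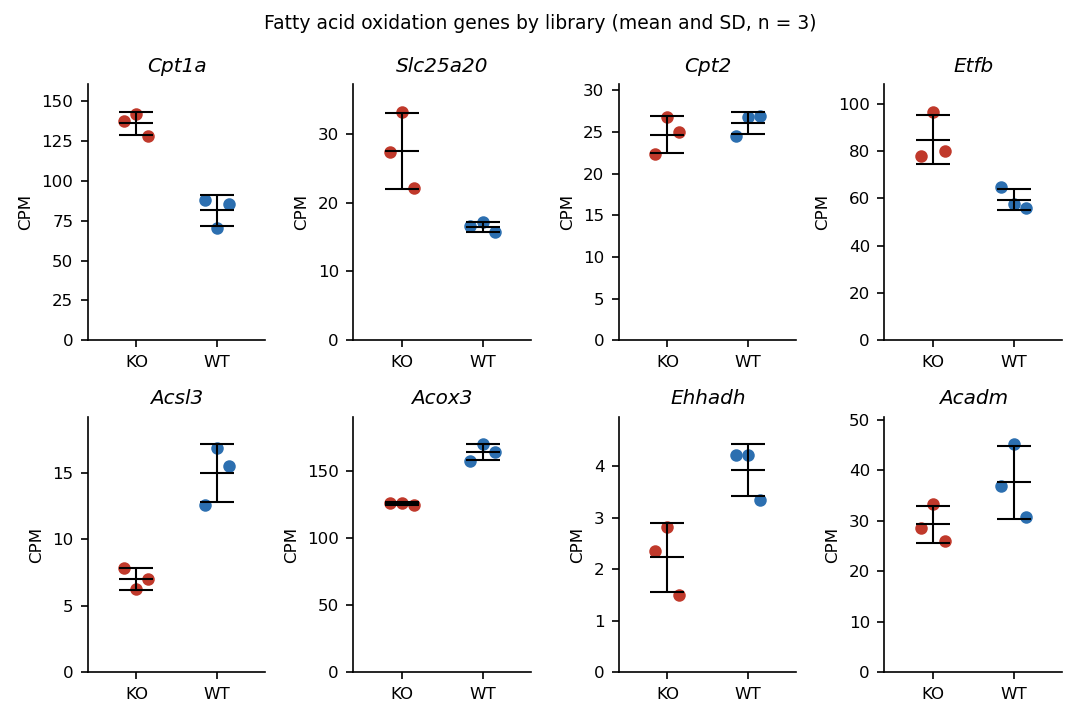
CPM per library of 8 members with group mean and SD (n = 3 each), KO left of WT, y axes from 0. Cpt1a, Slc25a20 and Etfb lie higher in KO and Acsl3, Acox3 and Ehhadh lower without overlap, whereas Cpt2 and Acadm overlap.

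Of the 8 acyl-CoA dehydrogenases, which open each turn of the spiral, edgeR called 0, where 14.6% of all genes were called. An unadjusted p under 0.05 was found for 2. The share of all genes with such a p is not given here, so these counts, here and below, are descriptions only. The medium-chain enzyme Acadm had 28.5, 33.3 and 26.0 CPM in KO libraries, against 36.8, 45.1 and 30.8 CPM in WT libraries. Its groups overlapped (log2 fold change -0.38, 95% interval -0.71 to -0.048, adjusted p = 0.123). Acadm was called lower in 4 of 19 alternative fits. Among them were those without KO replicate 2 (adjusted p = 0.0453), without WT replicate 3 (0.0347) and without both (log2 fold change -0.63, adjusted p = 9.36e-04). Without any other single library it was not called, with log2 fold changes of -0.395 to -0.219 (adjusted p 0.22 to 0.422). The long-chain enzyme Acadl had 57.7, 52.9 and 53.5 CPM in KO libraries, against 67.8, 64.4 and 61.7 CPM in WT libraries, with no overlap (log2 fold change -0.26, 95% interval -0.47 to -0.053, adjusted p = 0.0925). Acadl was called in 2 of 19 alternative fits, 1 of them without both libraries that stood apart (log2 fold change -0.29, adjusted p = 0.0326).

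The very-long-chain enzyme Acadvl averaged 105 ± 8.20 CPM in KO and 93.5 ± 7.91 CPM in WT libraries (SD, n = 3 each), and its groups overlapped (log2 fold change 0.15, adjusted p = 0.423). The short-chain enzyme Acads averaged 55.2 ± 5.73 CPM in KO and 47.8 ± 2.99 CPM in WT libraries (SD, n = 3 each), with overlap as well (0.18, adjusted p = 0.300). Acadvl has 32.9% of its words in common with other genes, and its exons overlap those of Dvl2 on the opposite strand. Acadsb (log2 fold change -0.22, adjusted p = 0.199) and Acad8 (-0.15, adjusted p = 0.403), which act in branched-chain amino acid breakdown, were not called. Nor were Acad9 (-0.25, adjusted p = 0.333), which also serves complex I assembly, and Acad10 (0.27, adjusted p = 0.191). Acadsb lay below and Acad10 above WT without overlap. Acad9 and Acad10 have 20.2% and 23.8% of their words in common with other genes, in Acad10 chiefly Acad12.

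Electrons of these dehydrogenases are carried by the flavoprotein of the Etfa and Etfb subunits to Etfdh, its oxidoreductase in the inner membrane. Etfb, on chromosome 7 from 43444072 to 43457800, had 77.7, 96.5 and 79.9 CPM in KO libraries, against 64.6, 57.7 and 56.0 CPM in WT libraries. The groups did not overlap (log2 fold change 0.49, SE 0.12, edgeR adjusted p = 0.0184). The call was lost without WT replicate 2 (log2 fold change 0.48, adjusted p = 0.0621), and the log2 fold change was 0.33 without KO replicate 2 and WT replicate 3 (adjusted p = 0.0186). Etfb shares 49.6% of its words with other genes, chiefly Gm45233, which overlaps its exons on the same strand, so its level is uncertain. Its partner Etfa had 39.0, 45.9 and 37.9 CPM in KO libraries, against 40.2, 38.8 and 33.2 CPM in WT libraries, and overlapped (log2 fold change 0.11, 95% interval -0.16 to 0.38, adjusted p = 0.611). Etfdh averaged 23.1 ± 4.58 CPM in KO and 25.5 ± 2.24 CPM in WT libraries (SD, n = 3 each), and overlapped (log2 fold change -0.16, adjusted p = 0.561). The FPKM ratio of Etfb to Etfdh was 8.94, 8.64 and 10.5 in KO libraries, against 5.97, 5.57 and 6.16 in WT libraries, without overlap.

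Of the 5 members at the hydratase, dehydrogenase and thiolase steps, edgeR called 0, where 14.6% of all genes were called. An unadjusted p under 0.05 was found for 0. Hadha and Hadhb encode the subunits of the mitochondrial trifunctional protein, which runs these steps on long chains. The genes lie head to head on chromosome 5, Hadha from 30119423 to 30154980 and Hadhb from 30155253 to 30184593. The promoter window of Hadhb, chr5:30155003-30155302 on the + strand (GRCm38.p6), covers most of the gap between them and is shown for that reason, with GC boxes in capitals.
Hadhb: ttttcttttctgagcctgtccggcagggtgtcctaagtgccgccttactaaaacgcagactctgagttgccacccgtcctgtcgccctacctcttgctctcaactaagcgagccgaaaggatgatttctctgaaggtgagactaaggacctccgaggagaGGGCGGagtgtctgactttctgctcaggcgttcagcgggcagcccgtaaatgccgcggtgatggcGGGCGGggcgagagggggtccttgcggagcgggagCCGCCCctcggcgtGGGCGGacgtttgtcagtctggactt
The window holds 4 GC boxes. Hadha had 130, 141 and 116 CPM in KO libraries, against 156, 159 and 138 CPM in WT libraries, with overlap (log2 fold change -0.24, 95% interval -0.49 to 0.0029, adjusted p = 0.182). Hadhb had 57.7, 64.3 and 55.8 CPM in KO libraries, against 68.1, 72.7 and 54.6 CPM in WT libraries, also with overlap (log2 fold change -0.16, 95% interval -0.43 to 0.12, adjusted p = 0.459). The FPKM ratio of Hadha to Hadhb was 3.70 ± 0.153 in KO and 3.96 ± 0.286 in WT libraries (SD, n = 3 each), and the ranges overlapped. Hadhb shares 23.4% of its words with other genes.

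The hydroxyacyl-CoA dehydrogenase of shorter chains, Hadh, averaged 46.4 ± 1.56 CPM in KO and 49.6 ± 3.87 CPM in WT libraries (SD, n = 3 each), with a log2 fold change of -0.12 and an adjusted p of 0.506. Echs1 had a log2 fold change of -0.083 (95% interval -0.32 to 0.16, adjusted p = 0.684). Acaa2, the mitochondrial thiolase, had 60.9, 79.8 and 65.7 CPM in KO libraries, against 55.9, 62.0 and 48.5 CPM in WT libraries, with overlap (log2 fold change 0.29, 95% interval -0.0012 to 0.59, adjusted p = 0.179). Of the 3 auxiliary enzymes, which handle unsaturated fatty acids, edgeR called 0, where 14.6% of all genes were called. Of these enzymes, 0 had an unadjusted p under 0.05. They were the isomerases Eci1 (0.040, adjusted p = 0.889, with a sign that changed when the length trend was removed) and Eci2 (0.20, adjusted p = 0.475) and the dienoyl-CoA reductase Decr1 (-0.064, adjusted p = 0.860). Eci2 had 72.5, 91.9 and 68.8 CPM in KO libraries, against 76.7, 72.5 and 51.9 CPM in WT libraries, a wide spread within each group.

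Of the 4 peroxisomal members, Acox3 fell and 0 rose, where 6.21% of all genes were called lower and 8.44% higher. All 4 values were below 0, where 48.3% of all genes had values above 0. The 95% intervals of Hsd17b4 (-0.28 to 0.14) and Acaa1a (-0.30 to 0.13) held 0. Acox3, an oxidase of branched-chain acyl-CoAs, had 127, 126 and 125 CPM in KO libraries, against 158, 170 and 164 CPM in WT libraries. The KO libraries lay close together and below all WT libraries (log2 fold change -0.40, SE 0.092, edgeR adjusted p = 0.0126). The call was lost without KO replicate 1 (log2 fold change -0.39, adjusted p = 0.0672) or KO replicate 3 (-0.38, adjusted p = 0.0623). An antisense gene overlaps its exons. Ehhadh, the bifunctional enzyme and a classic PPAR alpha target in liver, had 2.36, 2.82 and 1.50 CPM in KO libraries, against 4.21, 4.21 and 3.35 CPM in WT libraries. Its groups did not overlap, but it was not called (log2 fold change -0.83, 95% interval -1.39 to -0.26, adjusted p = 0.0528). It was called in 9 of 19 alternative fits, among them those without KO replicate 2 (0.0233) and without WT replicate 3 (0.0422). Scored as log2(FPKM + 1), which shrinks changes of weakly expressed genes, it stood at -0.41. The multifunctional enzyme Hsd17b4 (-0.067, adjusted p = 0.708) and Acaa1a (-0.086, adjusted p = 0.629) were not called. Acaa1a has 23.0% of its words in common with other genes, chiefly Acaa1b, and its exons overlap Myd88 on the opposite strand.

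**Figure D4:**
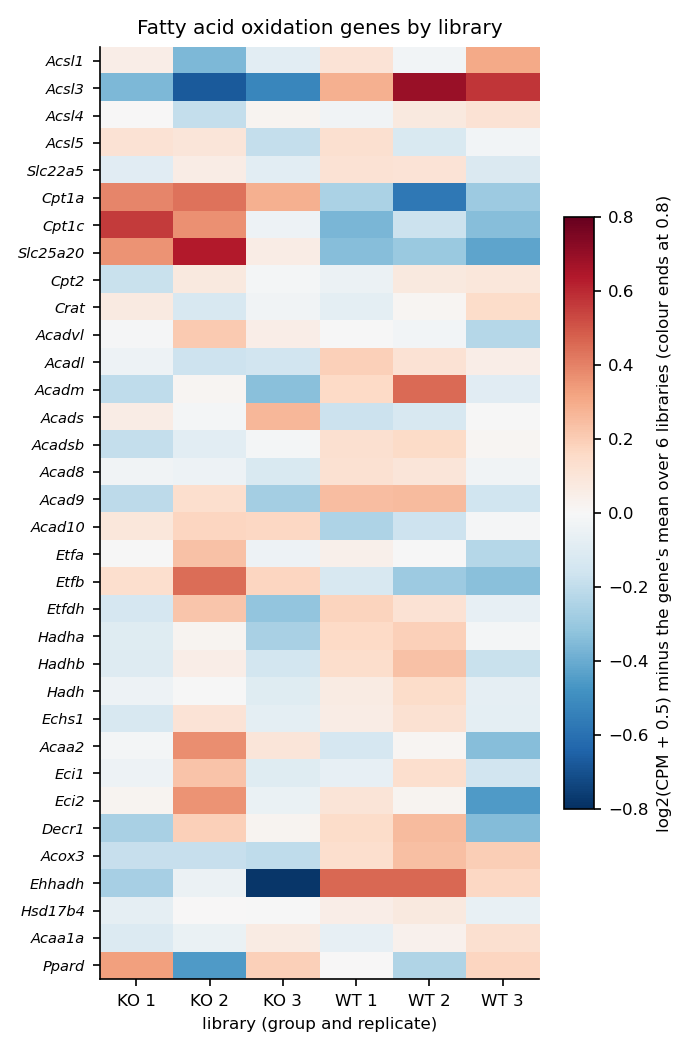
Log2(CPM + 0.5) of each tested member in each library, minus the gene's mean over the 6 libraries (red higher, blue lower, colour ends at 0.8), KO libraries left of WT libraries. Cpt1a and Slc25a20 are red across KO and Acsl3 is blue across KO, while KO replicate 2 is the highest KO library in 21 of the 34 members and WT replicate 3 the lowest WT library in 21.

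Within the groups, KO replicate 2 was the highest KO library for 21 of 34 tested members, or 61.8%, and for 34.9% of all tested genes. WT replicate 3 was the lowest WT library for 21 of 34 members, or 61.8%, and for 39.1% of all tested genes. Whether the members differ from other genes in this was not tested. The median deviation of the members from their group mean was 0.094 on the log2 scale in KO replicate 2, against -0.040 and -0.048 in KO replicates 1 and 3. In WT replicate 3 it was -0.082, against 0.026 and 0.054 in WT replicates 1 and 2. Without these libraries, 4 members were called higher (Cpt1a, Slc25a20, Etfb and Ppard) and 9 lower, with Acadm, Acadl, Acad9, Hadha, Hadhb, Etfdh and Ehhadh added to Acox3 and Acsl3. The median over the members was then -0.15. In that subset genotype and the split along this component cannot be told apart.

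Of the receptors, Ppara, which drives these genes in liver, had 3, 3 and 1 counts in KO libraries, against 2, 1 and 3 counts in WT libraries, at or under the floor of 3 counts in every library, and was not tested. Ppard, the more widely expressed relative, had 48.8, 28.1 and 44.3 CPM in KO libraries, against 38.7, 32.7 and 43.7 CPM in WT libraries. The groups overlapped (log2 fold change 0.046, 95% interval -0.35 to 0.44, adjusted p = 0.906). Its lowest value was that of KO replicate 2, and without KO replicate 2 and WT replicate 3 it was called higher (log2 fold change 0.34, adjusted p = 0.0281).

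Of 14 tested PPAR partners, coactivators and known PPAR targets outside the members, 3 were called higher and 1 lower, where 8.44% of all genes were called higher and 6.21% lower. The list has no test of its own, and 2 of these 4 calls, those of Pprc1 and Lpin2, held in 12 of 19 alternative fits. Angptl4, a lipoprotein lipase inhibitor and PPAR target, had 4.32, 6.80 and 5.95 CPM in KO libraries, against 1.53, 1.44 and 2.79 CPM in WT libraries. Its groups did not overlap (log2 fold change 1.54, SE 0.29, edgeR adjusted p = 0.00424). Pdk4, a kinase that shuts off pyruvate dehydrogenase and a PPAR target, had 3.27, 1.83 and 2.05 CPM in KO libraries, against 0.432, 0.328 and 0.856 CPM in WT libraries, also without overlap (log2 fold change 2.10, SE 0.40, adjusted p = 0.00506). Scored as log2(FPKM + 1), Angptl4 stood at 0.99 and Pdk4 at 0.54, and both were still called. Pprc1, a relative of the PGC-1 coactivators, rose (log2 fold change 0.64, SE 0.18, adjusted p = 0.0379) and Lpin2, a phosphatidate phosphatase, fell (-0.39, SE 0.10, adjusted p = 0.0182).

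The call of Pprc1 was lost without KO replicate 1 (adjusted p = 0.119), KO replicate 3 (0.109), WT replicate 1 (0.0916) or WT replicate 2 (0.0903). That of Lpin2 was lost without KO replicate 1 (0.0659), KO replicate 3 (0.0696), WT replicate 1 (0.0772) or WT replicate 3 (0.0528). The lipid droplet coat protein Plin2, another known PPAR target, was chosen with its values in view. It had 471, 680 and 471 CPM in KO libraries, against 388, 417 and 344 CPM in WT libraries. The ranges did not overlap and the gene was not called (log2 fold change 0.48, SE 0.15, adjusted p = 0.0564). Without KO replicate 2 it stood at 0.26, and without KO replicate 1 at 0.59 (adjusted p = 0.0454). Plin2 was called in 6 of 19 alternative fits. Of the other genes of the PPAR list, which were not called, the dimer partner Rxra stood at -0.10 (adjusted p = 0.643) and Pparg at -0.45 (adjusted p = 0.159). The estrogen-related receptor Esrra stood at 0.29 (adjusted p = 0.0875), with KO above WT without overlap.

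**Figure D5:**
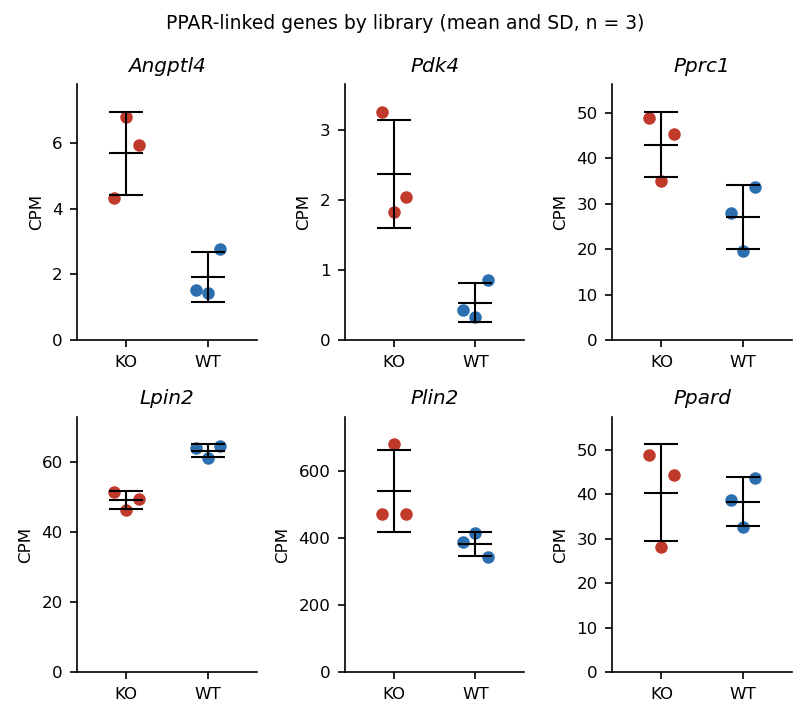
CPM per library of 6 PPAR-linked genes with group mean and SD (n = 3 each), KO left of WT, y axes from 0. Angptl4, Pdk4, Pprc1 and Plin2 lie higher in KO without overlap, Lpin2 lies lower, and Ppard overlaps.

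Over 10 neighbouring lists with 126 tested genes, that of the PPARs included, 6 genes rose and 8 fell, or 11.1%, against 14.6% of all genes, with a median log2 fold change of -0.079, against -0.011 over all genes. Of the carnitine system outside the members, edgeR called 0 of 7, and 0 had an unadjusted p under 0.05. Its smallest p-values were those of the peroxisomal octanoyltransferase Crot (log2 fold change -0.24, adjusted p = 0.243) and of Aldh9a1 of carnitine synthesis (0.19, adjusted p = 0.263). Of fatty acid uptake and binding genes, 0 of 9 were called by edgeR and 1 had an unadjusted p under 0.05, the fatty acid transporter Cd36 (-0.38, adjusted p = 0.0979). Cd36 was called without WT replicate 3 (-0.45, adjusted p = 0.0493), and the binding protein Fabp3 came next (-0.49, adjusted p = 0.179). Of genes of malonyl-CoA and AMPK control, 0 of 14 were called by edgeR and 1 had an unadjusted p under 0.05, the acetyl-CoA carboxylase Acaca (-0.30, adjusted p = 0.165). Its relative Acacb stood at -0.45 (adjusted p = 0.245). Of peroxins, 0 of 16 were called by edgeR and 1 had an unadjusted p under 0.05, and the import receptor Pex7 stood at 0.30 (adjusted p = 0.178).

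Of acyl-CoA synthetases and thioesterases outside the members, 2 of 13 tested genes rose and 1 fell, where 8.44% of all genes were called higher and 6.21% lower. The mitochondrial acetyl-CoA synthetase Acss1 fell (log2 fold change -0.72, SE 0.12, edgeR adjusted p = 0.00293). The thioesterase Acot7 rose (0.47, SE 0.11, adjusted p = 0.0140), a call lost without WT replicate 2 (0.0516). The synthetase Acsbg1 rose at a low level, with 2.13, 2.39 and 2.08 CPM in KO libraries, against 0.432, 0.530 and 0.220 CPM in WT libraries (log2 fold change 2.46, SE 0.37, adjusted p = 0.00112), and stood at 0.57 when scored as log2(FPKM + 1). Of ketone body and acetoacetyl-CoA genes, 0 of 6 rose and 2 fell, beside the same shares of all genes. The ketone-using transferase Oxct1 had 73.6, 77.7 and 75.4 CPM in KO libraries, against 111, 134 and 117 CPM in WT libraries, without overlap (log2 fold change -0.69, SE 0.10, adjusted p = 0.00107), and was called in each of 19 alternative fits. A transcript on the opposite strand overlaps its exons. The cytosolic thiolase Acat2 fell (-0.66, SE 0.17, adjusted p = 0.0249) but shares 43.5% of its words with other genes, chiefly Acat3, and is uncertain. Its call was lost without KO replicate 1 (0.0989), KO replicate 3 (0.111) or WT replicate 2 (0.105).

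The counts of the next 3 lists are set beside 8.44% of all genes called higher and 6.21% called lower. Of peroxisomal oxidation genes outside the members, 0 of 15 rose and 2 fell. These were catalase (Cat, log2 fold change -0.36, SE 0.091, edgeR adjusted p = 0.0233) and the alpha-oxidation lyase Hacl1 (-0.65, SE 0.19, adjusted p = 0.0453). Cat lost its call without KO replicate 1, KO replicate 3, WT replicate 1 or WT replicate 3 (adjusted p 0.0622 to 0.0956). Hacl1 lost its call without KO replicate 1, KO replicate 3, WT replicate 1 or WT replicate 2 (0.0786 to 0.203), and it shares 33.3% of its words with other genes. Of lipid droplet and lipolysis genes, 0 of 12 rose and 1 fell, the lysosomal acid lipase Lipa (-0.33, SE 0.10, adjusted p = 0.0428). Lipa lost its call without KO replicate 1 or 3 or any WT replicate (0.0611 to 0.180). Of branched-chain amino acid and propionyl-CoA genes, 1 of 20 rose, the hydrolase Hibch of valine breakdown (0.75, SE 0.21, adjusted p = 0.0306), and 1 fell, Bckdhb of the branched-chain keto acid dehydrogenase (-0.46, SE 0.14, adjusted p = 0.0499). Hibch lost its call without KO replicate 2, KO replicate 3, WT replicate 1 or WT replicate 3 (0.0583 to 0.104). Bckdhb lost its call without any KO replicate or without WT replicate 1 or 2 (0.0590 to 0.197). Over the 19 alternative fits, Bckdhb was called in 5, Hacl1 in 7, Hibch and Lipa in 12 each, Acat2 in 14 and Cat in 15.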

How the data were processed

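RNA of 6 LPS-treated BMDM samples was sequenced as strand-specific total RNA libraries, per the labels' protocols, and groups and replicate numbers come from the labels. The authors deposited raw read counts per gene, and FPKM values of those genes in a separate table, with a column for each sample. The submitters' processing notes list fastp, HISAT2, HTSeq and mm10, with no versions or strand setting. Each deposited FPKM value matched count over gene length over column total within 1% for 99.99% of values with at least 10 counts.

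The deposited counts went into edgeR 4.0.16 (R 4.3.3), with genes kept by filterByExpr, scaling by TMM, a quasi-likelihood test of KO against WT over all 6 libraries and Benjamini-Hochberg adjustment over 12219 genes at 0.05. CPM uses the column total. SE is the absolute log2 fold change over the square root of F. A floor of 3 counts is 0.0733 to 0.0919 CPM, for counting error only. Shared 32-base words and exon overlaps come from GENCODE M21 transcripts (GRCm38). The code was tested on simulated counts. Every member is given, with each library's value for the called, the 5 highest and the regulatory members. Neighbouring lists give up to 4 called genes or the 2 of smallest p, with Plin2, Rxra, Pparg and Esrra given besides. The members, lists, ratios and promoters were chosen with earlier results of these data known. A gene that the naming rule covers is not reported here. Alternatives were other scalings, DESeq2 1.42.0, limma-voom, other low-count filters, limma-trend (limma 3.58.1) on log2 FPKM with pseudocounts of 1 and 0.1, removal of a gene length trend, a replicate block, and leaving out libraries.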

Additional observations from a re-analysis of the deposited data

How the results depend on the processing

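Cpt1a, Slc25a20 and Acsl3 kept their direction and their calls in all 19 alternative fits. Of 645 member values under these alternatives, 596 kept their direction and side of the threshold, 3 lost a call (Acox3 without KO replicate 1 or 3, Etfb without WT replicate 2), 22 gained one and 24 changed sign, all in members without a call. Acsl5 took 0.0032 with RLE scaling, 0.021 with upper-quartile scaling, 0.018 with library totals, 0.0024 with no low-count filter, 0.016 with at least 1 CPM in 3 libraries, 0.014 with each limma-trend fit and 0.036 with the length trend removed, where Eci1 took -0.057. Over the fits that left out libraries, log2 fold changes ranged from -0.077 to 0.11 for Acsl5, -0.15 to 0.14 for Eci1, -0.36 to 0.072 for Decr1, -0.090 to 0.34 for Ppard, -0.0042 to 0.21 for Acadvl, -0.12 to 0.30 for Eci2, -0.079 to 0.18 for Etfa and -0.14 to 0.013 for Crat. Leaving out 1 library gave 1119 to 1741 calls over all genes, against 1790 with 6 libraries, with 1119 without KO replicate 1, 1149 without KO replicate 3 and 1138 without WT replicate 1. It gave 2 to 3 members called higher and 1 to 4 called lower. Without KO replicate 2 and WT replicate 3 together, 3186 genes were called, and 4 members were called higher and 9 lower. The cause of these shifts was not tested. With the replicate number as a block, 2526 genes were called, and 4 members were called higher and 6 lower, with Acaa2 added above (adjusted p = 0.0467) and Acadm (0.0126), Acadl (0.0467), Acsl1 (0.0472) and Ehhadh (0.0174) added below. Deviations of same-numbered libraries correlated at -0.098, 0.23 and 0.18, and those of differently numbered libraries at -0.37 to 0.26. The same-numbered values lay within that range, so the numbers were not taken to pair the samples. Whether the samples are paired was not tested. Beyond the fits that left out libraries, Pprc1, Lpin2 and Bckdhb lost their calls in 3 of 3 limma-trend fits on FPKM, as did Hacl1, and Hibch and Acat2 in 2. Upper-quartile scaling and the filter of at least 1 CPM ended the calls of Lipa, Hacl1 and Bckdhb, library totals and limma-voom those of Hacl1 and Bckdhb, removal of the length trend that of Hacl1, and RLE scaling and no low-count filter that of Bckdhb. Ppara, with at most 3 counts in any library, was removed by the low-count filter of the main fit. It entered some fits without that filter, and its values there are not given.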
